A study of Mus musculus with 28 samples.

Results

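The 10 genes described here encode the NF-kappaB transcription factors of mouse microglia (*Nfkb1*, *Nfkb2*, *Rel*, *Rela* and *Relb*), their inhibitors and modulators (*Nfkbia*, *Nfkbiz*, *Tnfaip3* and *Bcl3*) and the cytokine TNF (*Tnf*). They were chosen by name as rows of the deposited count table, which lists 48587 genes. All 10 passed the filter on low counts, as did 15298 genes in all, and the tests below were adjusted over these 15298 genes.

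RNA was sequenced from microglia isolated by FACS as CD11b+CD45low cells from the hippocampus of 28 male mice aged 16 weeks, with 1 library per mouse. Mice were wild type (WT) or carried the 5xFAD transgenes, human mutant *APP* and *PS1* under the neuron-specific *Thy-1* promoter, in heterozygous form on a C57BL/6J background, and WT mice were littermates. They were specific pathogen-free (SPF), germ-free (GF) or treated for 8 weeks with the antibiotics vancomycin, cefoxitin, gentamicin and metronidazol in the drinking water (ABX). Of the WT mice 5 were SPF, 4 GF and 5 ABX, and of the 5xFAD mice 3 were SPF, 5 GF and 6 ABX. GF mice came from another facility than the others, so that origin and GF housing cannot be told apart. Mouse FAD_GF_201 is a 5xFAD mouse by its title and genotype but a WT mouse by its description. It was used as a GF 5xFAD mouse, and values with it as a GF WT mouse or left out are given where a call depends on it.

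Each library held 14441610 to 29977395 reads counted on genes. No pair of libraries in a group agreed within sampling noise, since the chi-square between their counts was at least 6.92 per degree of freedom. All 9 microglia markers searched were detected in every group, and their summed level lay between 58400 and 65100 CPM (counts scaled to the library total) in WT and between 45800 and 56500 CPM in 5xFAD mice, with no overlap of the genotypes. The gate of the sort left out cells stained for Ly6C or Ly6G. Markers of neutrophils summed to 56.5 to 221 CPM in the 3 SPF 5xFAD mice and to 117 CPM in mouse FAD_ABX_1151, and to at most 0.774 CPM in the other 24 mice, with *Mmp8* at 0 in the SPF 5xFAD mice. Markers of border-associated macrophages summed to 27.3 to 185.5 CPM in ABX 5xFAD mice and to 3.4 to 54.7 CPM elsewhere, with *Cd163* and *Lyve1* at 0 in all SPF WT and ABX WT mice. Monocyte markers summed to 16 to 39 CPM in SPF 5xFAD, 14.4 to 52 CPM in ABX 5xFAD, 6.02 to 24.9 CPM in GF 5xFAD and 3.72 to 16.9 CPM in WT mice, with *Ly6c2* at 0 in all WT and GF 5xFAD mice and *Chil3* at 0 in all GF mice and all ABX WT mice. In GF 5xFAD mice, endothelial markers summed to 9.42 to 23.9 CPM, against 18.6 to 54.5 CPM elsewhere, and astrocyte markers to 153 to 188 CPM, below all other mice, whose group medians ran from 227 to 284 CPM. Immediate early and stress genes, which rise when cells are handled, summed to 1110 to 1220 CPM in SPF 5xFAD mice, 1160 to 1510 CPM in ABX 5xFAD mice and 1300 to 1870 CPM in the 4 other groups. The part of these markers in the results below was not tested. The library descriptions are numbered in 3 styles, which cannot be told apart from the groups when 5xFAD is compared with WT under SPF or ABX conditions, or GF with SPF or ABX housing in WT mice or GF with SPF housing in 5xFAD mice. Both GF groups have the same style.

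NF-kappaB factors are dimers of REL proteins that are held in the cytoplasm by inhibitors such as IκBα, the product of *Nfkbia*. Toll-like receptors and the receptors for TNF and IL-1 activate the IKK kinases, which mark IκBα for degradation, and the freed dimers enter the nucleus and switch on genes for cytokines and chemokines. The same dimers induce *Nfkbia* and *Tnfaip3*, whose products end the response, so the pathway limits itself. In microglia, the resident macrophages of the brain, it is best known for the response to microbial products and tissue damage. Much of its control acts on proteins, which RNA levels do not show.

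The stretch of 250 bases before the start site was read for the members found in the RefSeq promoter table of build GRCm38.p6, because several of these genes are known targets of the factors they encode or restrain. Of the 10 members, 7 had an entry, with 10 start sites in all. *Nfkb1*, *Relb* and *Nfkbiz* had none. Both strands were searched for the NF-kappaB consensus motif of 10 letters, with overlapping matches counted, and 6 of the 10 member entries held a match, against 1281 of all 32851 promoters (3.9 percent). These 6 entries came from 4 of the 7 members and are not independent, since several belong to *Nfkb2* and 2 of its stretches share bases. The promoters with matches of 4 members are printed here 5′ to 3′ on the strand of the gene, with the bases of a match in capitals: *Nfkb2* at chr19:46304487-46304736 on the plus strand, *Nfkbia* at chr12:55492648-55492897, *Rel* at chr11:23770970-23771219 and *Tnfaip3* at chr10:19015411-19015660, the last 3 on the minus strand.
Nfkb2: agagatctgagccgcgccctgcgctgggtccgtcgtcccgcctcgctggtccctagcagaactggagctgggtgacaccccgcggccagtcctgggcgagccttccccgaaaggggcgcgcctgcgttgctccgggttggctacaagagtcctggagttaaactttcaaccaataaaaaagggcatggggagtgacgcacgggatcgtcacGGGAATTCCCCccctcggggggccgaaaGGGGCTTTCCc
Nfkbia: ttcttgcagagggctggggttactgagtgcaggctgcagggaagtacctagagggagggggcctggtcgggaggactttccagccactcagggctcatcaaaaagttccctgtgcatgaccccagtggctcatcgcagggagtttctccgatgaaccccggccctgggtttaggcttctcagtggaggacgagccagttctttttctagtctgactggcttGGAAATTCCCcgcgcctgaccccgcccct
Rel: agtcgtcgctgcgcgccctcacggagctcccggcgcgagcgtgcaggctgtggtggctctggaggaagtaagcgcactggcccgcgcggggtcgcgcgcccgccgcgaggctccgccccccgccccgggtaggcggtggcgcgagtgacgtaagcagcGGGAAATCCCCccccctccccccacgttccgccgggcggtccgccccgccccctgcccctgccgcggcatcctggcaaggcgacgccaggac
Tnfaip3: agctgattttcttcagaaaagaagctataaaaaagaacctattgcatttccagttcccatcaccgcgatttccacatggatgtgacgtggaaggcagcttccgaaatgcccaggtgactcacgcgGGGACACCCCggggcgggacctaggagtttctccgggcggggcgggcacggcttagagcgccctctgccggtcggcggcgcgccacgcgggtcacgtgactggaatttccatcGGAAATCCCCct
The *Nfkb2* stretch held 3 matches, beginning 39, 38 and 11 bases before the start site, and both other *Nfkb2* start sites had 1 each. The *Nfkbia* stretch held 1 match 29 bases before the start site, *Rel* 2 that overlap at 92 and 91 bases, and *Tnfaip3* 2 at 125 and 12 bases. No match stood in the stretches of *Rela*, *Tnf* and *Bcl3* or at the other start site of *Tnfaip3*. A match describes the letters of the reference genome and was not tested as a binding site.

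To compare levels between members, reads were divided by the exon length given in the count table (RPKM, which scales for library size and length) and averaged over all 28 mice. *Rela*, which encodes the transactivating subunit p65, stood highest with 73.8 ± 9.66 RPKM (SD, n = 28), next to *Nfkbia* with 66.4 ± 19.6 RPKM. The ranges of this pair over single mice overlapped, and the lowest *Nfkbia* value of 40.7 RPKM was above the highest *Nfkb1* value of 20.2 RPKM. A middle tier held *Nfkb1* (p105, the precursor of p50) with 15.4 ± 2.21 RPKM, *Tnfaip3* (the deubiquitinase A20) with 11.7 ± 2.23 RPKM, *Nfkb2* (p100, the precursor of p52) with 9.90 ± 1.79 RPKM, *Rel* (the subunit c-Rel) with 9.70 ± 3.28 RPKM and *Relb* (the partner of p52) with 6.89 ± 1.45 RPKM. The lowest levels were those of *Nfkbiz* (the nuclear modulator IκBζ) with 4.15 ± 1.199 RPKM, *Tnf* with 3.09 ± 2.02 RPKM and *Bcl3* (a nuclear IκB protein that binds p50 and p52) with 1.504 ± 0.536 RPKM. From *Nfkb1* downward, the ranges over single mice of neighbours in this order overlapped. The order depends on the exon lengths, which were 12061 bases for *Nfkb1*, 2716 for *Rela* and 1577 for *Nfkbia*. Before division by length, on library sizes scaled by the TMM method, *Nfkb1* had a mean of 185.5 CPM, *Rela* 200.3 CPM and *Nfkbia* 104.7 CPM. *Rela* and *Nfkb1* varied least over the mice, with coefficients of variation of 13.1 and 14.4 percent, and *Tnf* most, with 65.3 percent. *Tnf* and *Bcl3* rested on few reads, 29 to 351 and 31 to 164 counts per library, while every library held at least 140 counts of each of the other 8 members.

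**Figure D1:**
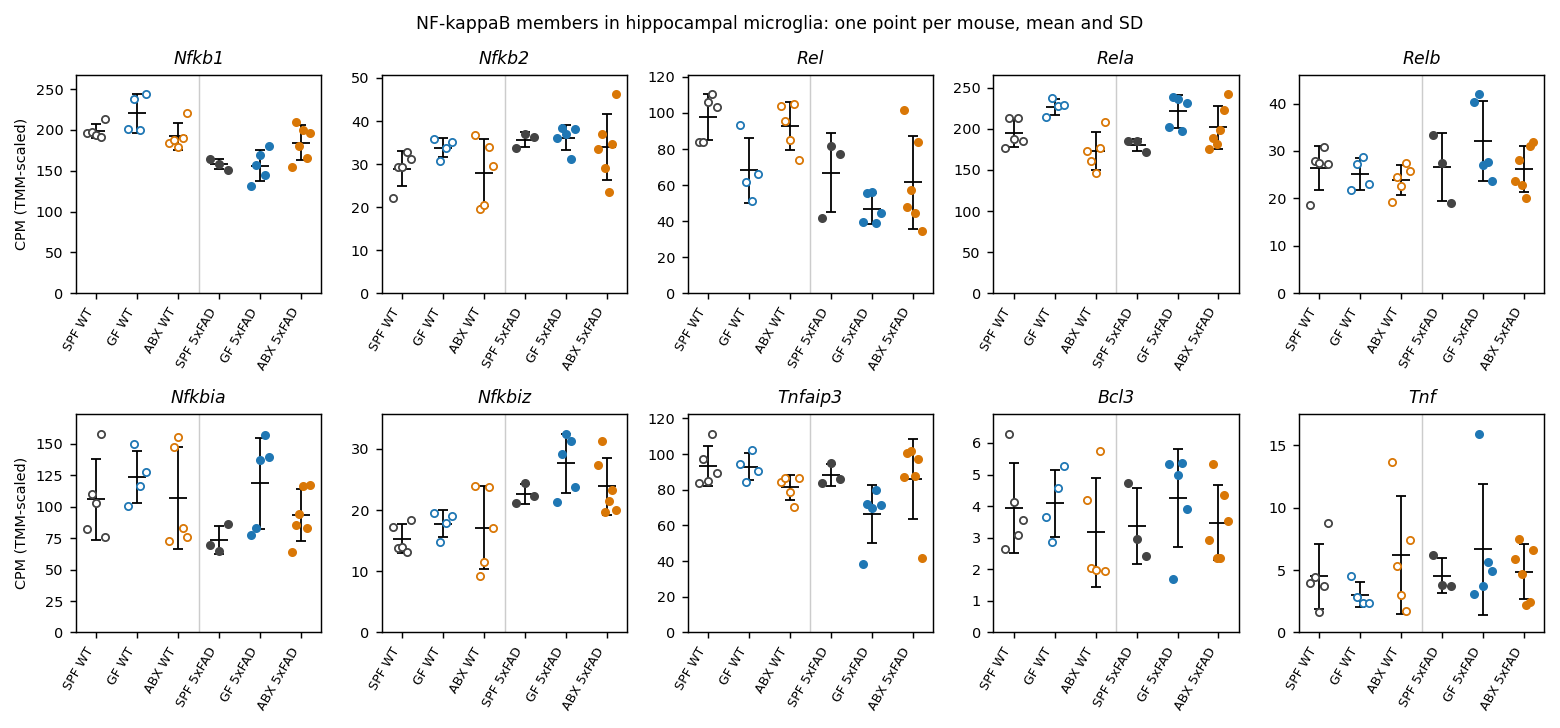
Level of each of the 10 members in CPM on TMM-scaled library sizes (vertical axes, each starting at 0) for every mouse of the 6 groups, open points for WT and filled points for 5xFAD, with bars for the mean and SD. *Rel* lay lower and *Nfkbiz* higher in 5xFAD than in WT mice of the same condition on average, while *Tnf* stayed between 1.62 and 15.9 CPM in all 28 mice.

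From here on levels are CPM on library sizes scaled by the TMM method. An F test over all 6 groups (edgeR quasi-likelihood, Benjamini-Hochberg adjustment) called 4 of the 10 members, beside 33.2 percent of all genes tested. These were *Nfkb1* (adjusted p = 0.00132), *Rel* (0.0033), *Nfkbiz* (0.00643) and *Rela* (0.0124). For the other 6 members the adjusted p of the F test ran from 0.182 for *Tnfaip3* to 0.878 for *Bcl3*.

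The first comparison asked how the members differ between 5xFAD and WT mice, averaged over the 3 conditions. *Nfkb1* and *Rel* were lower and *Nfkbiz* was higher in 5xFAD mice, so 3 of the 10 members passed the threshold, beside 25.1 percent of all genes. The log2 fold change of *Rel* was -0.56 (SE 0.136, 95% interval -0.84 to -0.28), a 1.47-fold lower level, with an adjusted p of 0.00263 (edgeR). *Nfkb1* fell by 0.29 on the log2 scale (SE 0.056, interval -0.41 to -0.18), a 1.23-fold lower level, with an adjusted p of 0.000184. *Nfkbiz* rose 1.47-fold, by 0.56 on the log2 scale (SE 0.121, interval 0.31 to 0.81), with an adjusted p of 0.000815. These calls held in all 37 alternative settings tried, with highest adjusted p-values of 0.0131 for *Rel*, 0.0282 for *Nfkb1* and 0.00315 for *Nfkbiz*. None of these settings dealt with the numbering style, which cannot be told apart from genotype in SPF and ABX mice. *Nfkb2* was at 0.22 (SE 0.0976, adjusted p = 0.0948). It passed without mouse WT_ABX_909 (0.0408) or mouse FAD_ABX_1455 (0.0365), and over all mice with limma's voomWithQualityWeights (0.0474), which called 4671 genes. The factor *Rela* was at 0.02 with an interval from -0.09 to 0.14. By condition *Rela* was at -0.11 under SPF (interval -0.33 to 0.11), -0.04 under GF (interval -0.24 to 0.17) and 0.22 under ABX conditions (interval 0.03 to 0.40, adjusted p = 0.106), and under ABX conditions it passed without mouse WT_ABX_932 (0.29, adjusted p = 0.0274). The intervals were -0.05 to 0.39 for *Relb*, -0.54 to 0.03 for *Nfkbia*, -0.38 to 0.05 for *Tnfaip3*, -0.45 to 0.43 for *Bcl3* and -0.34 to 0.87 for *Tnf*.

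**Figure D2:**
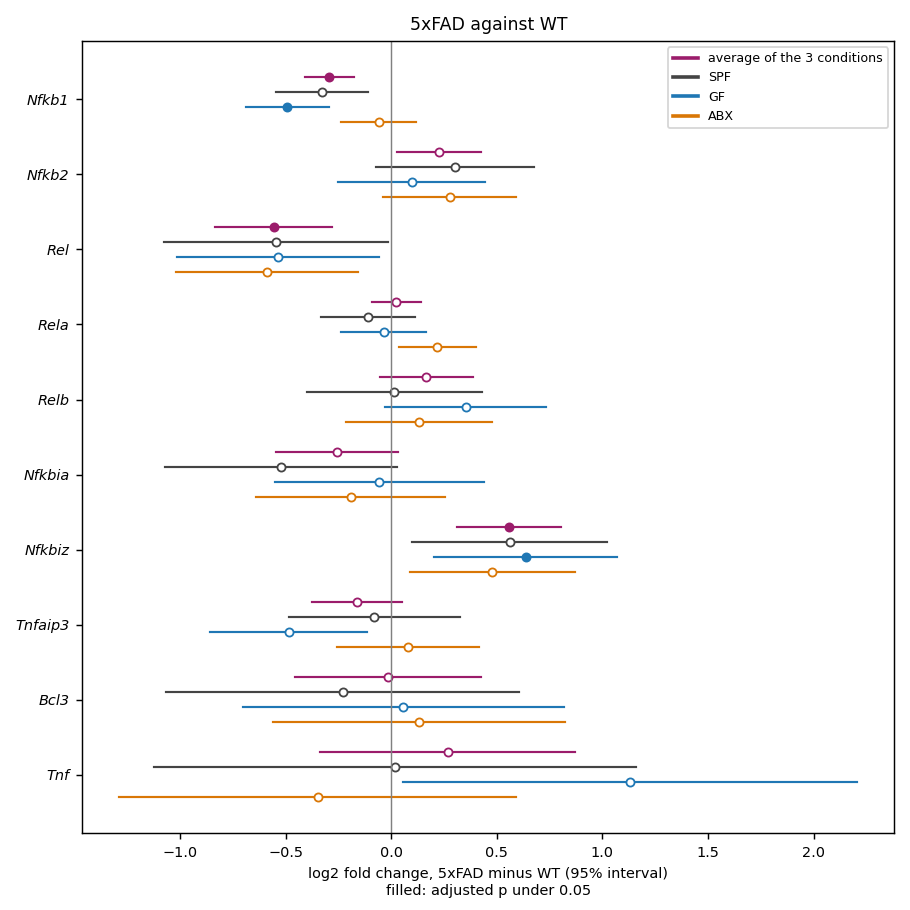
Log2 fold change between 5xFAD and WT mice (horizontal axis) of the 10 members, as the average of the 3 conditions and for SPF, GF and ABX mice apart, with bars for the 95% interval and filled points for an adjusted p under 0.05. *Nfkb1*, *Rel* and *Nfkbiz* have filled points for the average, and *Nfkb1* and *Nfkbiz* also for GF mice.

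*Rel*, on chr11:23736847-23770970 of GRCm38 (minus strand), encodes c-Rel, a subunit best known from lymphocytes and macrophages. Under SPF conditions its level was 84.0, 84.1, 103, 106 and 110.3 CPM in WT mice and 41.6, 77.2 and 81.5 CPM in 5xFAD mice. In GF mice it was 51.4, 61.5, 66.4 and 93.4 CPM in WT and 38.9, 39.6, 44.3, 55.9 and 56.2 CPM in 5xFAD mice. In ABX mice it was 73.6, 84.8, 95.5, 104 and 105 CPM in WT mice and had a lowest value of 34.3, a median of 52.4 and a highest value of 102 CPM in the 6 5xFAD mice. Every SPF 5xFAD mouse was thus below every SPF WT mouse, while the groups overlapped under GF and ABX conditions. The log2 fold change was -0.55 under SPF (SE 0.259, adjusted p = 0.326), -0.54 under GF (SE 0.234, 0.126) and -0.59 under ABX conditions (SE 0.211, 0.0585). None of these passed alone over all genes, although exact two-sided permutation tests on the mice of each pair gave p = 0.0179 under SPF, 0.0476 under GF and 0.0411 under ABX conditions. The smallest p that 3 against 5 mice allow is 0.0179. Without mouse FAD_SPF_1144, which had 41.6 CPM, the value under SPF was -0.29, and without WT_GF_199, which had 93.4 CPM, the value under GF was -0.35. The 2 highest *Rel* values of the ABX 5xFAD group were those of mice FAD_ABX_1151 (102 CPM) and FAD_ABX_1460 (83.6 CPM). Without mouse FAD_ABX_1151, whose library has a numbering style of its own in that group, the log2 fold change in ABX mice was -0.79 (adjusted p = 0.00544). Leaving out FAD_ABX_1460 (0.0347), WT_ABX_932 (0.0453), FAD_SPF_1144 (0.0456) or WT_GF_199 (0.0498) also brought *Rel* past the threshold in ABX mice. Over all mice it passed there with library size alone (0.0323), no filter on low counts (0.0481), at least 10 counts in every library (0.0415), DESeq2 (0.0345), voomWithQualityWeights (0.0185) and gene length offsets (0.018), and in GF mice with library size alone (0.0493).

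*Nfkb1*, on chr3:135584655-135691547 (minus strand), encodes p105, which is processed to the DNA-binding subunit p50. In SPF mice its level was 191, 193, 196, 198 and 213 CPM in WT and 151, 158 and 164 CPM in 5xFAD mice. Among GF mice it was 199.3, 200.7, 237 and 243 CPM in WT and 131, 145, 157, 169 and 179.8 CPM in 5xFAD mice. In ABX mice it was 179, 184.5, 187, 190.1 and 221 CPM in WT mice, and the 5xFAD mice had a lowest value of 155, a median of 188 and a highest value of 209.6 CPM. The genotypes did not overlap in SPF or GF mice, and they overlapped in ABX mice. In GF mice *Nfkb1* fell by 0.49 on the log2 scale (adjusted p = 0.000469, SE 0.0963), and the exact permutation test gave p = 0.00794, the smallest that 5 against 4 mice allow. In SPF mice the log2 fold change was -0.33 (SE 0.106, adjusted p = 0.08, exact permutation p = 0.0179), and it passed with library size alone (0.0357), voomWithQualityWeights (0.000815) and a fit of only the groups compared (0.0153). In ABX mice it was -0.06, with an interval from -0.24 to 0.12. The difference between the genotype effects of ABX and GF mice was 0.43 (SE 0.13, interval 0.17 to 0.70) with an unadjusted p of 0.00242 and an adjusted p of 0.0798. It passed without mouse FAD_ABX_1151 (0.0398), FAD_GF_201 (0.0405) or WT_ABX_932 (0.044), and with DESeq2. With mouse FAD_GF_201 taken as a WT mouse, the change in GF mice was -0.49 (adjusted p = 0.000761). Gene length offsets in the fit were the only setting to end the call in GF mice, with -0.35 (adjusted p = 0.0697).

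*Nfkb2*, on chr19:46304737-46312090 (plus strand), encodes p100, and *Relb*, on chr7:19606217-19629438 (minus strand), encodes its partner in the non-canonical branch. *Nfkb2* reached 28.9 ± 4.01 CPM (SD, n = 5) in SPF WT and 35.6 ± 1.77 CPM (n = 3) in SPF 5xFAD mice, and no SPF 5xFAD mouse was below 33.6 CPM or SPF WT mouse above 32.7 CPM. Its log2 fold change was 0.30 under SPF, 0.10 under GF and 0.28 under ABX conditions, with intervals that all held 0. *Relb* was at 26.4 ± 4.65 CPM (n = 5) in SPF WT and 26.7 ± 7.20 CPM (n = 3) in SPF 5xFAD mice. Under GF conditions it was at 25.2 ± 3.38 CPM (n = 4) in WT and 32.1 ± 8.38 CPM (n = 5) in 5xFAD mice, where mice FAD_GF_181 and FAD_GF_182 had 40.3 and 41.9 CPM and the other 3 had 23.6 to 27.6 CPM. Exons of *Nfkb2* overlap *Psd* and those of *Bcl3* overlap *Gm16175* on the opposite strand, and reads of such a pair cannot be told apart because the library kit did not mark strand.

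*Nfkbiz*, on chr16:55811375-55838899 (minus strand), encodes IκBζ, a nuclear protein that turns on a late set of genes together with p50. In SPF mice its level was 13.2, 13.9, 14.0, 17.2 and 18.4 CPM in WT and 21.2, 22.4 and 24.4 CPM in 5xFAD mice. Among GF mice it was 14.7, 17.9, 19.0 and 19.6 CPM in WT and 21.4, 23.8, 29.2, 31.4 and 32.5 CPM in 5xFAD mice. In ABX mice it was 9.25, 11.5, 17.1, 23.8 and 23.9 CPM in WT mice and had a lowest value of 19.7, a median of 22.4 and a highest value of 31.3 CPM in 5xFAD mice. All SPF and GF 5xFAD mice were above all WT mice of their condition, and the overlap in ABX mice came from mice WT_ABX_909 and WT_ABX_923. In GF mice *Nfkbiz* rose by 0.64 on the log2 scale (adjusted p = 0.0386, SE 0.212, exact permutation p = 0.0159). That call was close to the threshold and was lost without any single GF WT mouse (adjusted p 0.0582 without WT_GF_199, 0.12 without WT_GF_229, 0.0741 without WT_GF_230 and 0.0632 without WT_GF_231) or without FAD_GF_182 (0.0642), FAD_GF_184 (0.0809) or FAD_GF_185 (0.0773), with log2 fold changes of 0.56 to 0.68 in these fits. It was 0.0566 with mouse FAD_GF_201 as a WT mouse, 0.0868 with library size alone as the scaling and 0.0595 without the filter on low counts. The log2 fold change was 0.56 in SPF (SE 0.225, adjusted p = 0.204) and 0.48 in ABX mice (SE 0.191, 0.0937), and in ABX mice it passed without WT_ABX_909 (0.0336) or WT_ABX_923 (0.0309). With voomWithQualityWeights it passed in SPF (0.0122) and ABX mice (0.0288), and with a fit of only the groups compared in SPF mice (0.0219).

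*Nfkbia*, on chr12:55489411-55492647 (minus strand), encodes IκBα. Its level varied widely within groups. It was 75.5, 82.5, 103, 109.8 and 158 CPM in SPF WT and 65.0, 69.9 and 86.1 CPM in SPF 5xFAD mice. Under GF conditions it was 100.3, 117, 127 and 149 CPM in WT and 77.4, 82.7, 137, 139 and 157 CPM in 5xFAD mice. The genotypes overlapped in both conditions, and the log2 fold change was -0.52 in SPF (interval -1.07 to 0.03), -0.06 in GF (-0.55 to 0.44) and -0.19 in ABX mice (-0.64 to 0.25).

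*Tnfaip3*, on chr10:19000910-19015657 (minus strand), encodes A20, which removes ubiquitin chains from signalling proteins of the TNF receptor pathway. In GF mice its level was 84.4, 90.7, 94.5 and 102 CPM in WT and 38.4, 70.0, 71.5, 71.8 and 80.0 CPM in 5xFAD mice, and the genotypes did not overlap. The log2 fold change was -0.49 (SE 0.181, adjusted p = 0.0671, exact permutation p = 0.0159). In SPF mice it was -0.08 (interval -0.48 to 0.32), and in ABX mice 0.08 (interval -0.26 to 0.42). The ABX 5xFAD mice had 87.2 to 102 CPM except mouse FAD_ABX_1482, which had 41.6 CPM. Without mouse FAD_ABX_1482, which enters the shared estimate of the spread, *Tnfaip3* in GF mice passed at the same log2 fold change of -0.49 (adjusted p = 0.0109). With all mice kept it passed with library size alone as the scaling (-0.61, adjusted p = 0.016), DESeq2 (-0.48, 0.0464) and voomWithQualityWeights (-0.48, 0.0332), while the highest adjusted p of the other settings over all mice was 0.116, with gene length offsets. The difference between the genotype effects of ABX and GF mice was 0.57 (adjusted p = 0.237) over all mice and 0.71 (adjusted p = 0.0365) without FAD_ABX_1482.

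*Bcl3*, on chr7:19808462-19822770 (minus strand), lay between 1.68 and 6.29 CPM, with group means from 3.18 ± 1.73 CPM (n = 5) in ABX WT to 4.25 ± 1.56 CPM (n = 5) in GF 5xFAD mice. *Tnf*, on chr17:35199381-35202007 (minus strand), encodes the cytokine that both activates and is induced by the pathway. Its level was 1.62, 3.75, 3.95, 4.45 and 8.75 CPM in SPF WT and 3.71, 3.79 and 6.19 CPM in SPF 5xFAD mice. In GF mice it was 2.36, 2.38, 2.85 and 4.52 CPM in WT and 3.10, 3.72, 4.93, 5.64 and 15.9 CPM in 5xFAD mice. In ABX mice it was 1.74, 2.97, 5.29, 7.38 and 13.7 CPM in WT mice, and the 5xFAD mice had a lowest value of 2.19, a median of 5.27 and a highest value of 7.51 CPM. WT and 5xFAD mice overlapped in every condition. The log2 fold change in GF mice was 1.13 (SE 0.527, adjusted p = 0.155, exact permutation p = 0.0873), and in SPF mice it was 0.02 with an interval from -1.12 to 1.16. The difference between these genotype effects was 1.11 (SE 0.769, interval -0.46 to 2.69, adjusted p = 0.734). Mouse FAD_GF_182, with 15.9 CPM, stood apart in its group, and without it the log2 fold change in GF mice was 0.52 (adjusted p = 0.553) and the difference 0.50 (adjusted p = 0.891).

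Taken by condition, 0 of the 10 members passed in SPF mice beside 4.57 percent of all genes, 2 (*Nfkb1* and *Nfkbiz*) in GF mice beside 15.6 percent, and 0 in ABX mice beside 14.4 percent (edgeR). At an unadjusted p under 0.05, SPF mice had 3, GF mice 5 and ABX mice 3 members, beside 2182, 4271 and 4235 genes, and limma's voomWithQualityWeights called 2, 3 and 2 members, beside 2154, 2455 and 2183 genes. Interaction terms tested the difference of the genotype effect between conditions. For GF against SPF and for ABX against SPF mice, 0 members and 0 percent of all genes passed (edgeR), with 0 and 1 members at an unadjusted p under 0.05 and 1304 and 1032 genes. The 1 member was *Rela*, with a difference of 0.33 (SE 0.141, adjusted p = 0.722). For ABX against GF mice, 0 members passed beside 1.76 percent of all genes, with 3 members and 2436 genes at an unadjusted p under 0.05. The members were *Nfkb1*, *Tnfaip3* and *Tnf* (-1.48, SE 0.696, adjusted p = 0.289). The *Tnf* difference was -0.87 without mouse FAD_GF_182 and -0.96 without WT_ABX_909. DESeq2 called *Nfkb1* there and no other member.

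The next comparisons asked how the absence or loss of gut bacteria bears on the members within each genotype. The housing comparisons share groups with each other and with those of genotype. *Rela*, on chr19:5637483-5648130 (plus strand), was the member that passed in one of them. In WT mice it was 177, 184.7, 188, 213 and 213 CPM under SPF, 214, 228, 228.7 and 237 CPM under GF and 146, 161, 173, 177 and 209 CPM under ABX conditions. All 4 GF WT mice were above all SPF WT and all ABX WT mice. *Rela* was lower in ABX than in GF WT mice by a log2 fold change of -0.39 (adjusted p = 0.0171, SE 0.099, exact permutation p = 0.0159), a 1.31-fold difference, and 1 of the 10 members passed in this comparison beside 6.88 percent of all genes. All GF WT libraries have one numbering style and all ABX WT libraries another, so style, origin of the mice and group cannot be told apart here. Without mouse WT_GF_229 the adjusted p was 0.0606, and without WT_ABX_911 it was 0.0571. On library totals, border-associated macrophage markers summed to 10.5 to 35.4 CPM in GF WT and 3.8 to 5.64 CPM in ABX WT mice. Of 21 immediate early and stress genes, 2 (*Jun* and *Junb*) were lower in ABX than in GF WT mice, beside 4.48 percent of all genes. The part of these markers in the *Rela* value was not tested. Against SPF WT mice, *Rela* in GF WT mice was at 0.22 (SE 0.0991, adjusted p = 0.26, exact permutation p = 0.0317). In 5xFAD mice *Rela* was 172, 184.8 and 184.8 CPM under SPF and 197, 202, 232, 236 and 239 CPM under GF conditions, and ABX mice had a lowest value of 176, a median of 194 and a highest value of 242 CPM. Again every GF mouse was above every SPF mouse, with a log2 fold change of 0.29 (adjusted p = 0.0747, SE 0.109, exact permutation p = 0.0357). That difference passed with DESeq2 (0.0419), with voomWithQualityWeights (0.0112), without mouse FAD_ABX_1482 (0.0495) and without both FAD_ABX_1151 and FAD_ABX_1482 (0.045). With the numbering style of the libraries as a term it was 0.06 (SE 0.189, adjusted p = 1), a fit that rests on mouse FAD_ABX_1151, the only mouse with another style than the rest of its group.

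**Figure D3:**
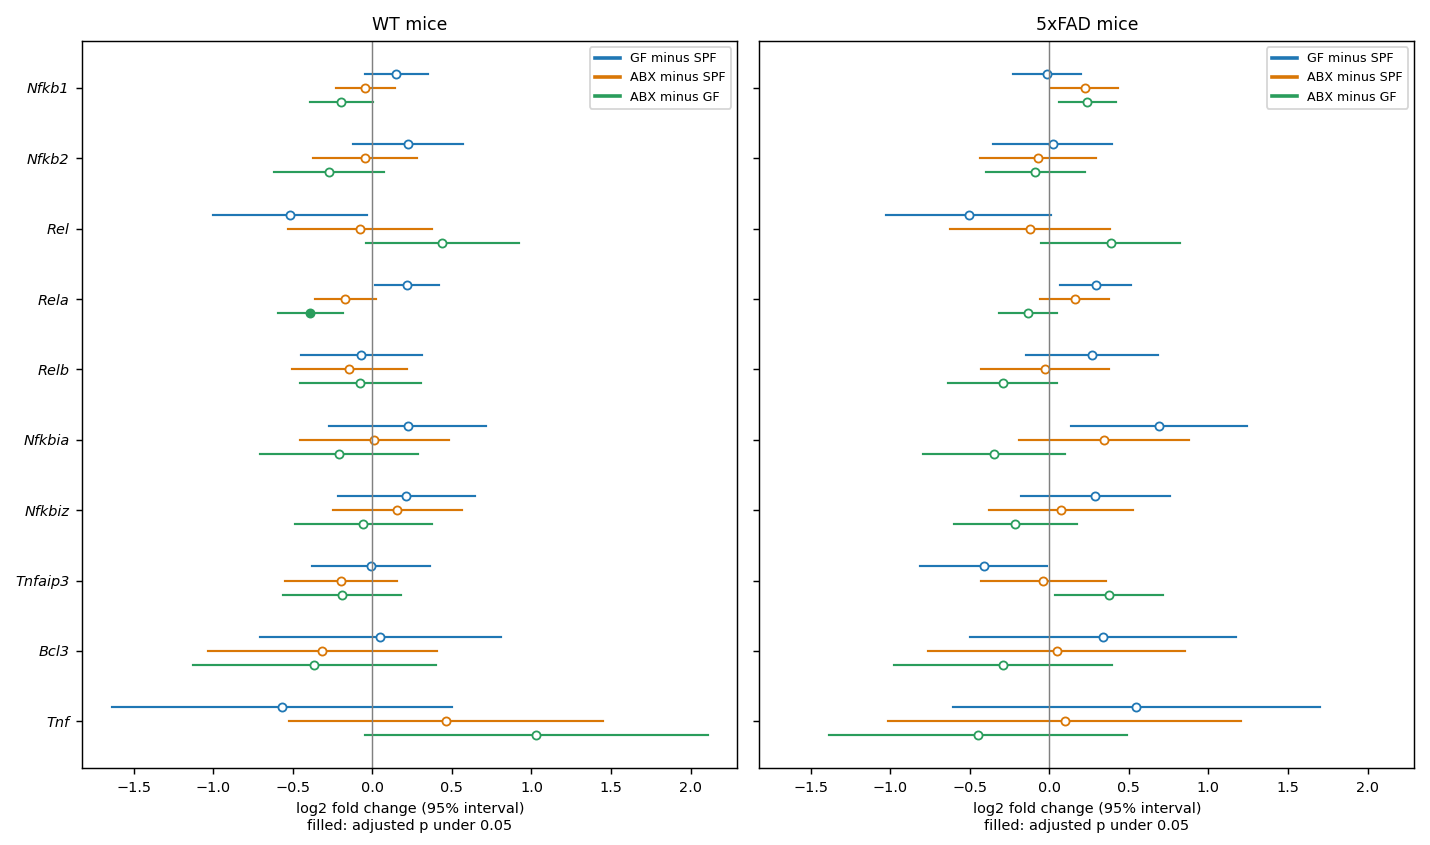
Log2 fold change (horizontal axes) between GF and SPF, ABX and SPF, and ABX and GF mice for the 10 members, in WT mice on the left and 5xFAD mice on the right, with bars for the 95% interval and filled points for an adjusted p under 0.05. The only filled point is that of *Rela* in ABX against GF WT mice, at -0.39.

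*Rel* was at -0.52 in GF against SPF WT mice (SE 0.236, adjusted p = 0.26, exact permutation p = 0.0317), with means of 68.2 ± 17.9 CPM (n = 4) and 97.6 ± 12.6 CPM (n = 5). In 5xFAD mice the means were 47.0 ± 8.51 CPM (n = 5) under GF and 66.8 ± 21.9 CPM (n = 3) under SPF conditions, a log2 fold change of -0.51. *Rel* passed with voomWithQualityWeights in WT (-0.61, adjusted p = 0.0207) and in 5xFAD mice (-0.66, 0.0193), and in a fit of only the groups compared in WT mice (-0.51, 0.0399). With the numbering style as a term the sign in 5xFAD mice turned, to 0.42 (SE 0.404, adjusted p = 1). *Nfkbia* was at 0.69 in GF against SPF 5xFAD mice (SE 0.27, adjusted p = 0.091, exact permutation p = 0.0714), and at 0.06 (SE 0.466) with the style as a term. *Tnfaip3* was at -0.41 (SE 0.196, adjusted p = 0.172) in the same comparison, where every GF mouse had less than every SPF mouse. It passed with voomWithQualityWeights (adjusted p = 0.0319) and was at -0.39 (SE 0.366) with the style as a term. Immediate early and stress genes, 8 of 21 of which rose in GF against SPF 5xFAD mice beside 6.97 percent of all genes, moved with this comparison. With the numbering style as a term, a fit that rests on mouse FAD_ABX_1151, 0 of all genes passed in it (edgeR), with 357 genes at an unadjusted p under 0.05, so these 8 calls were lost too.

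By comparison, 0 members passed between GF and SPF WT mice beside 1.62 percent of all genes, and 0 between GF and SPF 5xFAD mice beside 12.8 percent (edgeR), a share of 0 with the numbering style as a term. At an unadjusted p under 0.05 these were 2 (*Rel* and *Rela*) and 3 members (*Rela*, *Nfkbia* and *Tnfaip3*), beside 2538 and 4104 genes, and voomWithQualityWeights called 1 and 3 members beside 1631 and 3872 genes. ABX against SPF mice gave 0 members and 0 percent of all genes in WT and 0 members and 0 percent in 5xFAD mice (edgeR), with 0 and 1 members and 687 and 1085 genes at an unadjusted p under 0.05. The 1 member was *Nfkb1* in 5xFAD mice, with 184.3 ± 21.3 CPM (n = 6) under ABX and 158 ± 6.47 CPM (n = 3) under SPF conditions and a log2 fold change of 0.22 (adjusted p = 0.679, SE 0.103). With the numbering style as a term it was -0.03 (SE 0.158). Between ABX and GF 5xFAD mice 0 members passed beside 10.6 percent of all genes, with *Nfkb1* at 0.24 (SE 0.0876, adjusted p = 0.0775) and *Tnfaip3* at 0.38 (SE 0.165, adjusted p = 0.145, and 0.24 without FAD_GF_181), the 2 members among 3899 genes at an unadjusted p under 0.05. *Nfkb1* passed there without FAD_GF_201 (0.0323) or FAD_ABX_1151 (0.0409), with FAD_GF_201 as a WT mouse (0.0412) and with the numbering style as a term (0.0462). Among the mice of 1 style its value was 0.31 (adjusted p = 0.128). *Tnfaip3* passed without FAD_ABX_1482, at 0.52 (adjusted p = 0.00621).

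The genes around the members were followed with lists of the pathway. Counts are genes that passed in 5xFAD against WT mice averaged over the conditions, where the median log2 fold change of all genes was -0.03 and 14.3 percent of all genes rose and 10.8 percent fell. Upstream, 6 of 23 genes of IKK and the signalling to it fell and 2 rose (median -0.09). Those with the lowest adjusted p among the falls were *Tab2* (-0.41, SE 0.0933, adjusted p = 0.0013), an adaptor of the kinase TAK1, *Chuk* (-0.24, SE 0.0567, 0.00231), which encodes IKKα, and *Myd88* (-0.23, SE 0.055, 0.00263), the adaptor of most Toll-like receptors. *Rbck1* and *Irak1* rose, by 0.22 and 0.14. With library size alone as the scaling, 10 fell and 0 rose, while the median of all genes shifted to -0.12. In that fit 4728 of all genes passed in either direction, against 3838 with TMM. None of the 6 genes of the non-canonical branch passed (edgeR) on average, and *Tnfrsf11a*, the receptor RANK, rose in ABX mice (0.56, adjusted p = 0.0415).

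Among 15 other inhibitors and deubiquitinases, *Nfkbie*, which encodes the inhibitor IκBε, fell by 0.50 on the log2 scale (adjusted p = 0.000144, SE 0.094), and *Tnip2* and *Nkiras2* rose by 0.27 and 0.21. *Nfkbie* was at 69.2 ± 10.3 CPM (n = 4) in GF WT and 43.3 ± 11.7 CPM (n = 5) in GF 5xFAD mice, and fell there by 0.68 on the log2 scale (adjusted p = 0.00357). Of 8 genes of TNF receptors and TNF processing, *Tnfrsf1b*, which encodes the receptor TNFR2, fell by 0.33 on average (SE 0.0674, adjusted p = 0.00045), with 645 ± 86.3 CPM (n = 4) in GF WT and 424 ± 60.4 CPM (n = 5) in GF 5xFAD mice. *Tradd*, an adaptor of TNFR1, rose by 0.27. Of 9 genes of TNF message decay and feedback, *Zfp36l2*, an RNA-binding protein that speeds the decay of messages, fell by 0.55 (SE 0.0959, adjusted p = 5.56e-05) and *Il10ra*, a chain of the IL-10 receptor, by 0.26 (adjusted p = 0.00222). With library size alone, 1 of the other inhibitors rose and 4 fell, 0 of the TNF receptor genes rose and 1 fell, so that the rise of *Tradd* was lost, and 0 of the decay and feedback genes rose and 4 fell. Of all genes, 4728 passed in either direction with that scaling, where the median of all genes was -0.12.

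Downstream, 11 of 27 genes known as targets of NF-kappaB rose in 5xFAD mice and 2 fell, with a median log2 fold change of 0.33. Of all genes, 14.3 percent rose and 10.8 percent fell. This list was chosen with earlier results of these data known. Of 21 immediate early and stress genes, 5 rose and 3 fell in the same comparison, and their part in the target values was not tested. With library size alone 10 of the targets rose and 6 fell, with a median of 0.25, beside 4728 genes called in either direction. The rises were led by *Csf1* (2.71, SE 0.103, adjusted p = 1.62e-18), a growth factor of microglia, the chemokine *Ccl3* (3.10, SE 0.173, adjusted p = 1.18e-14) and *Cd83* (1.06, SE 0.0809, adjusted p = 1.36e-11), a marker of activated antigen-presenting cells. *Cflar*, an inhibitor of caspase activation at death receptors, and the transcription factor *Irf1* fell, by 0.27 and 0.30. *Ptgs2* was among the 11, but had 0 counts in all WT mice and at most 3.48 CPM in 5xFAD mice, so no fold is given, and the median was the same with *Ptgs2* at the bound set by a floor of 3 counts. *Csf1*, *Ccl3*, *Ccl4*, *Cd83* and *Cxcl16* rose in SPF, GF and ABX mice alike. *Ccl3* was at 21.4 ± 4.70 CPM (n = 5) in SPF WT and 142 ± 47.7 CPM (n = 3) in SPF 5xFAD mice. It reached 290.3 ± 110.2 CPM (n = 5) in GF 5xFAD and 151 ± 35.7 CPM (n = 6) in ABX 5xFAD mice. By condition, 5 targets rose and 0 fell in SPF mice, and 7 rose and 1 fell in GF and in ABX mice each. Of all genes, 3.73 percent rose and 0.837 percent fell in SPF, 9.43 and 6.2 percent in GF, and 9.45 and 4.98 percent in ABX mice. Between GF and SPF 5xFAD mice 4 rose (*Ccl3*, *Csf1*, *Cxcl16* and *Ccl4*) and 2 fell (*Cflar* and *Sdc4*), beside 6.97 and 5.86 percent of all genes. Of the 10 members 0 passed there with edgeR, beside 12.8 percent of all genes in either direction. The voomWithQualityWeights fit called *Rel*, *Rela* and *Tnfaip3* there, beside 3872 genes. With library size alone 2 of the targets rose and 2 fell in this comparison, beside 1921 genes in either direction. With the numbering style as a term all 6 target calls were lost, as were those of all other genes. In bulk samples, fewer cells with a transcript and less of it per cell cannot be told apart.

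**Figure D4:**
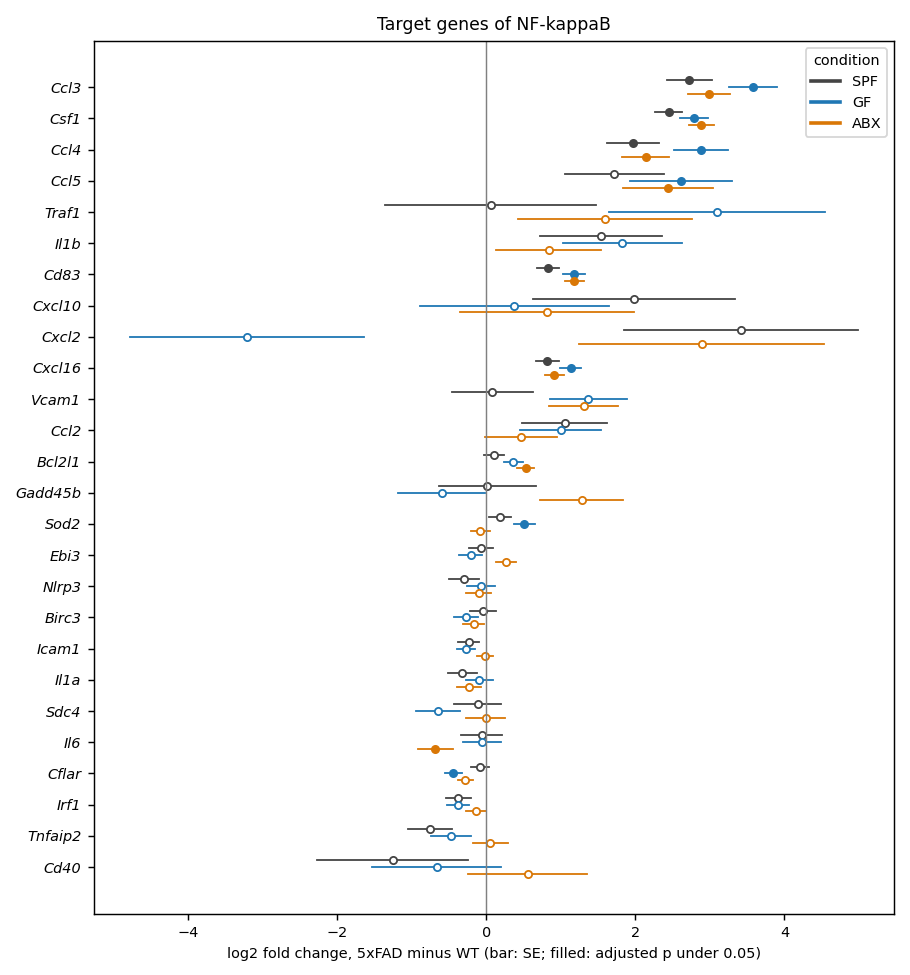
Log2 fold change between 5xFAD and WT mice (horizontal axis, bars for the SE) for the NF-kappaB target genes tested other than *Ptgs2*, in SPF, GF and ABX mice, with filled points for an adjusted p under 0.05. *Ccl3*, *Csf1*, *Ccl4*, *Cd83* and *Cxcl16* are filled to the right of 0 in all 3 conditions, and many targets lie near 0 or have wide bars.

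Genes whose log2 CPM followed a member most closely over the 28 mice were looked up among 8930 genes whose average was 3 log2 CPM or more. Mice share their group here, so a likeness can come from group differences, and the values are a description. The nearest to *Rela* were *Fermt3* (Pearson r = 0.91), *Fzr1* (0.90) and *Akt1* (0.89). *Nfkb1* was followed by *Asb2* (0.89), *Lpcat3* (0.88) and *Serpinf1* (0.87), *Rel* by *Fmnl3* (0.88), *Ep300* (0.87) and *Rapgef5* (0.87), and *Tnfaip3* by *Kbtbd8* (0.88), *Smad2* (0.84) and *Nupl1* (0.83). *Nfkbia* was nearest to *Tsc22d3* (0.83), *Psmd10* (0.76) and *Cebpb* (0.76), and *Nfkbiz* to *Asf1b* (0.80), *Gnptab* (0.79) and *Tmem184b* (0.77). The nearest genes of *Nfkb2* (*Ncln*, 0.78), *Relb* (*Nfkbil1*, 0.70), *Bcl3* (*Wdr91*, 0.66) and *Tnf* (*Gm5141*, 0.65) were less close. After each group's mean was subtracted, *Tsc22d3* was still nearest to *Nfkbia* (0.85) and *Kbtbd8* to *Tnfaip3* (0.87), while *Rela* was nearest to *Tapbp* (0.87), *Rel* to *Ice1* (0.89) and *Nfkb1* to *Serpinf1* (0.82).

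Among themselves, the members were correlated over the 28 mice after each group's mean was subtracted, with permutations within groups. Of the 45 pairs, 0 passed Benjamini-Hochberg adjustment by Pearson's r or Spearman's rho, and 4 had an unadjusted permutation p under 0.05 for Pearson's r. The lowest p for Pearson's r was that of *Nfkbia* and *Nfkbiz*, with r = -0.57 (permutation p = 0.0194, adjusted p = 0.408) and rho = -0.54 (permutation p = 0.0175, adjusted p = 0.394). The value of r was -0.51 without the 2 mice farthest from the median, -0.85 among the 10 mice of the first numbering style and -0.03 among the 14 mice of the third. *Rela* correlated with *Nfkb2* at r = 0.54 and rho = 0.57 (permutation p = 0.0272 for r and 0.0091 for rho, the lowest for rho, adjusted p = 0.394), with r = 0.59 without the 2 farthest mice and 0.61 and 0.55 within these styles.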

How the data were processed

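The members and lists were chosen with earlier results of these data known. RNA of sorted microglia was sequenced from 28 mice, with a kit that does not mark strand. Raw counts of each gene were deposited, which the authors made by aligning reads to GRCm38 with STAR 2.7.2 and counting them with featureCounts 1.6.2 (GENCODE annotation), without normalization. The submitters' processing notes list GRCh38.p12 as build, but the coordinates in the table are those of mouse. The table also gives exon lengths, which the authors' counting made. The 92 spike-in entries were removed. Genes were kept by filterByExpr (minimum count 10, minimum total 15) and scaled by TMM, which matters because a shift in the scaling moves all fold changes. The quasi-likelihood test of edgeR 4.0.16 in R 4.3.3 had 1 term per group, and p-values were adjusted by Benjamini-Hochberg over 15298 genes with a threshold of 0.05. It was tested on simulated data. Single members were also compared by an exact permutation test (two-sided) of log2 CPM with a prior count of 2. Likeness was Pearson's r on these values, and correlations among members used 100000 permutations. The p-values measure the spread between mice of a group. Nothing says that libraries of a group were processed on separate days, and a batch shared by a group would not show in that spread. Such a batch cannot be told apart from the group. Alternatives were other scalings, filters, gene length offsets, DESeq2 1.42.0, voomWithQualityWeights of limma 3.58.1, fits of fewer groups, the numbering style, FAD_GF_201 as WT, and leaving out mice. At most 3 genes per direction were named from each list, by adjusted p, except for the list of target genes, from which more were named. Figures were drawn with matplotlib 3.10.9.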

Additional observations from a re-analysis of the deposited data

Results flagged for a closer look

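In groups of 4 to 6 mice, the highest or lowest mouse was compared with the gap to its nearest neighbour by Dixon's test. Of 50 pairs of a member and a group, 5 had a mouse that stood apart, where chance gives about 1 in 20. *Nfkb1* was at 213 CPM in mouse WT_SPF_936, the highest of the SPF WT mice, and at 221 CPM in mouse WT_ABX_932, the highest of the ABX WT mice. *Tnfaip3* was lowest in mouse FAD_GF_181 among the GF 5xFAD mice, with 38.4 CPM, and in mouse FAD_ABX_1482 among the ABX 5xFAD mice, with 41.6 CPM. *Tnf* was at 15.9 CPM in mouse FAD_GF_182, the highest of the GF 5xFAD mice and of all 28 mice.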

How the results depend on the processing

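Of 130 fold changes of members, 84 kept their sign in all alternatives, and of the 28 with an unadjusted p under 0.05, 1 did not. That was *Nfkb1* in ABX against SPF 5xFAD mice, at -0.03 with the numbering style as a term and -0.02 among mice of 1 style. Both values rest on mouse FAD_ABX_1151, the only ABX mouse of that style. The number of members past the threshold depended on the setting as follows, with 10 members in all. Parentheses give the number of all genes past it, out of 15298 where no other total is named. In 5xFAD against WT mice under SPF conditions the number of members was 0 (699), but 1 with library size alone (748) and 2 with voomWithQualityWeights (2154) or a fit of only the groups compared (1340 of 13796). In GF mice it was 2 (2391), but 1 without the low-count filter (2117 of 29674), with gene length offsets (2268) or with mouse FAD_GF_201 as WT (2420). It was 3 there with library size alone (3026), DESeq2 (2770), voomWithQualityWeights (2455) or without mice FAD_ABX_1151 and FAD_ABX_1482 (2730 of 15278). On average it was 3 (3838), but 4 with voomWithQualityWeights (4671), and for the F test 4 (5079), but 6 with voomWithQualityWeights (7868) and 5 with library size alone (5531) or without that pair (5649 of 15278). In ABX mice it was 0 (2207), but 1 with library size alone (2471), no filter (1896 of 29674), at least 10 counts in every library (1960 of 10750), DESeq2 (2552), gene length offsets (2365) or without mice FAD_ABX_1151 and FAD_ABX_1482 (2312 of 15278), and 2 with voomWithQualityWeights (2183). For GF against SPF it was 0 in WT (248) and 5xFAD mice (1962). In WT mice it was 1 with voomWithQualityWeights (1631) or a fit of only the groups compared (1286 of 13395). In 5xFAD mice it was 1 with DESeq2 (2492) or without that pair of mice (2467 of 15278) and 3 with voomWithQualityWeights (3872). For ABX against GF 5xFAD mice it was 0 (1621), but 1 with library size alone (1727), DESeq2 (2128), FAD_GF_201 as WT (1830), the numbering style as a term (991) or without the pair (1601 of 15278). For the interaction of ABX and GF it was 0 (269), but 1 with DESeq2 (576) or without the pair (358 of 15278). An unadjusted p under 0.05 gave 3, 5 and 3 members for genotype in SPF, GF and ABX mice, 2 and 3 for GF against SPF in WT and 5xFAD mice, 1 for ABX against SPF and 2 for ABX against GF in 5xFAD mice, and 1 and 3 for the interactions of ABX with SPF and GF. Leaving out 1 mouse at a time gave 3 to 4 members for the average genotype effect, 1 to 3 in GF and 0 to 2 in ABX mice, 0 to 1 for GF against SPF 5xFAD mice, for ABX against GF in either genotype and for the interaction of ABX and GF, 4 to 5 for the F test and 0 to 0 elsewhere. The share of all genes past the threshold is not given for the fits with 1 mouse left out, so these ranges cannot be read against it. The cause of these changes was not tested. No paired analysis was possible because replicate numbers are mouse numbers that groups do not share. *Tnf* and *Bcl3* had the fewest reads, with 29 to 351 and 31 to 164 counts per library.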
